A study of Mus musculus with 3 samples.

Results

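Endocardial cells of the mouse heart, as named by a rule on expression, were described here across 3 sorted libraries of the cardiac interstitium. The rule took 132 of the 5833 cells, and 112 of the 132 held at least 4 of 6 further endocardial genes. The endocardium is the sheet of endothelial cells that lines the heart chambers and meets the blood of the chambers directly. Endocardial cells carry Npr3, the clearance receptor that removes natriuretic peptides from the circulation, and release Nrg1, a neuregulin that signals to ErbB receptors of the neighbouring heart muscle. They also share an origin with the cells of the valves, and some of the factors known from valve formation (Gata4, Hand2, Nfatc1, BMP ligands) are known from this lining.

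Non-myocyte cells had been released from hearts with collagenase II, cleared of cardiomyocytes by a slow spin, and sorted with antibodies to Lin28, an RNA-binding protein looked for here on the cell surface, and to the receptor cKit. The 3 groups were mouse (Mus musculus) cardiac interstitial cells labelled Lin28-/cKit-, Lin28+/cKit- and Lin28+/cKit+, called below the double-negative, the Lin28-positive cKit-negative and the double-positive library, and values are given in that order. Each group was 1 droplet library made with 10x Chromium 3' chemistry. No source used here gives the animals' strain, age, sex or number, a treatment or a transgene, or says whether a library pooled animals. The title of the series sets surface Lin28 beside signs of stress and senescence. Groups were not replicated, so nothing was tested, and the 95% intervals given hold the error of counting alone.

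A cell counted as endothelial when the mean of 5 pan-endothelial genes (Pecam1, Cdh5, Egfl7, Emcn, Tie1), on the deposited scale of natural log values per 10000 transcripts, was at least 0.5 and above the means of 5 fibroblast and of 5 macrophage genes. Among these cells the endocardial ones were those whose mean standardised value was highest, and above 0, for Npr3, Nrg1, Smoc1 and H19, rather than for 4 capillary, 4 arterial or 4 further genes (Car4, Timp4, C1qtnf9, Ccdc85a; Hey1, Sema3g, Gja4, Stmn2; Lrg1, Col13a1, Cyp26b1, Samd5). The rule found 88, 11 and 33 cells, leaving 897, 265 and 440 other endothelial cells for comparison. These genes chose the cells, so their values describe the choice and support nothing. The 3 cells nearest to the edge inside led the next set, or 0, by 0.0751, 0.154 and 0.165 standard deviations, and the 3 nearest outside stood at -0.0036, -0.0086 and -0.011.

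The endocardial cells were 8.93% (7.23 to 10.9) of the endothelial cells of the double-negative library, 3.99% (2.01 to 7.02) in the Lin28-positive cKit-negative one and 6.98% (4.85 to 9.66) in the double-positive one. As shares of all cells of the libraries these are 2.21% (1.78 to 2.72), 1.62% (0.809 to 2.87) and 2.81% (1.94 to 3.92). Of the endothelial shares, the intervals of the double-negative and the Lin28-positive cKit-negative library did not overlap, and that of the double-positive library overlapped both. The 3 shares of all cells overlapped. With the cells thinned to 1000 UMIs for the rule the endothelial shares were 6.89%, 2.67% and 6.68%. The sort sets what each library can hold, and counting intervals leave out the spread between samples.

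The libraries had 3976, 681 and 1176 cells with 34031955, 7401174 and 10400648 UMIs (unique molecular identifiers, the tags by which captured transcripts are counted). The cells that scored as fibroblasts numbered 2850, 39 and 10 and those that scored as macrophages 22, 349 and 670. No cell barcode was shared between the double-negative and the Lin28-positive cKit-negative library, 8 between the double-negative and the double-positive library and 1 between both Lin28-positive libraries, and 0, 1 and 1 endocardial cells carried such a barcode. The endocardial cells summed to 626413, 108823 and 280666 UMIs, with medians of 7142, 8760 and 8538 UMIs per cell against 3865, 7457 and 5312 in the other endothelial cells. Doublets were not called, so a cell holding the genes of 2 types may be 2 cells.

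The sequences before the transcription starts of Npr3, a gene of the rule, and of Cytl1, an endocardial gene outside it, are shown because both genes set these cells apart. Each run is the 250 bases before the RefSeq start on GRCm38.p6, 5′ to 3′ on the strand of the gene, and capitals mark the only match to the words searched. The words were GGAAAA, known as the core bound by NFAT factors, and the GATA factor site AGATAA, both on either strand.
Npr3, chr15:11907372-11907621, minus strand: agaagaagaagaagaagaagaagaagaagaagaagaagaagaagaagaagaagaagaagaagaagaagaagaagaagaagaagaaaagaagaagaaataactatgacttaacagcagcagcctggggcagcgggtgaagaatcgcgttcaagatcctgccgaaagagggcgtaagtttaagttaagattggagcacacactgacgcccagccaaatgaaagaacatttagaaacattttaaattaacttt
Cytl1, chr5:37735269-37735518, plus strand: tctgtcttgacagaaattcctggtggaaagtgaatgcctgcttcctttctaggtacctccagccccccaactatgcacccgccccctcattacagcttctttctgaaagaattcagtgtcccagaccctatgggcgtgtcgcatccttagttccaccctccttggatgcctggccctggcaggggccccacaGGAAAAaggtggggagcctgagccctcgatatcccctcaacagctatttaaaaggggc
The Npr3 stretch held neither word, and the Cytl1 stretch held 1 GGAAAA, 58 bases before the start. Among 32851 promoters of the same length GGAAAA stood in 20.4% and AGATAA in 9.99%, so a match is a description of the letters and not of a bound site. Of the 20 genes of the endocardial list below, 11 had a promoter in the table, 3 with GGAAAA (Cytl1, Foxc1, Hapln1) and 1 with AGATAA (Hand2). Counted per gene over all 27025 genes with a promoter, GGAAAA stood in 22.9% and AGATAA in 11.4%.

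The cells of the rule were recognised mainly through Npr3, with the other 3 genes seen in fewer cells. Npr3 (ENSMUSG00000022206.7, chr15:11839896-11907287 on mm10) stood at 1141, 928 and 1268 CPM (the usual scaling of the summed UMIs to a common total) and was found in 84 of 88, 7 of 11 and 31 of 33 cells. The other endothelial cells held 6.47, 8.14 and 6.03 CPM. Nrg1 (ENSMUSG00000062991.7, chr8:31814551-32884029) stood at 216, 193 and 200 CPM in 24, 3 and 17 cells, against 0 UMIs in every other endothelial cell. Smoc1 (ENSMUSG00000021136.13, chr12:81026808-81186414), a secreted calcium-binding matrix protein, stood at 198, 165 and 278 CPM in 57, 6 and 26 cells. H19 (ENSMUSG00000000031.16, chr7:142575529-142578143), an imprinted long noncoding RNA, stood at 326, 818 and 606 CPM in 19, 7 and 10 cells, and 65 of its 89 UMIs in the Lin28-positive cKit-negative library came from 1 cell. After every cell was thinned to 1000 UMIs, which left out 2, 1 and 1 endocardial cells, Npr3 was seen in 57.0%, 50% and 59.4% of endocardial cells and in 0.346%, 0.392% and 0.937% of the others. Of the 132 cells, 31 held 1 of the genes, 53 held 2, 38 held 3 and 10 held all 4.

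Outside the endocardial cells Npr3 was also present in 14, 12 and 13 other endothelial cells and in 92 of 2850, 3 of 39 and 0 of 10 fibroblast-scoring cells. The other rule genes followed the name of the set less evenly. Emcn (endomucin) was 1649, 1544 and 2134 CPM in the endocardial cells against 600, 463 and 487, while Cdh5 (VE-cadherin) was 294, 625 and 310 against 800, 882 and 871. Of the other subtype genes, the arterial connexin gene Gja4 was 75, 82.7 and 99.8 CPM against 46.9, 20.1 and 39.2.

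A further 6 endocardial genes that were not in the rule (Cytl1, Vwf, Tmem108, Cgnl1, Cdh11, Plvap) were counted in each cell. At least 4 of them were seen in 78 of 88, 7 of 11 and 27 of 33 cells, together 112 of 132 (84.8%, 77.6 to 90.5), against 21 of 1602 other endothelial cells (1.31%). Hapln1, Nfatc1, Gata4, Bmp6, Tmem100 and Foxc1 had been named as further endocardial genes too and were left out of this count. As given below, Foxc1, Gata4 and Bmp6 stood higher in the double-negative and the double-positive library. Nfatc1 was called higher in neither of these, and Hapln1 was found in 1 cell. Tmem100 had too few UMIs to be measured in the Lin28-positive cKit-negative library, and its values in the larger ones are not given. Most of the cells held at least 4 of the 6, but not each of them. Tmem108, Cdh11 and Plvap are also among the 20 highest genes of these same cells below, and the lists were chosen with earlier results known. The count therefore describes the cells and does not test the name. In 8 cells none of the 6 was seen beside a single rule gene, and 10 cells held Npr3 alone of the rule with at most 1 of the 6. Another 7 cells were chosen on H19 alone, and 3 of these, 1 in the double-negative and 2 in the Lin28-positive cKit-negative library, held at least 3 of the lymphatic endothelial genes Prox1, Mmrn1, Flt4, Lyve1 and Reln. Those 2 cells are 2 of only 11, so each value of the Lin28-positive cKit-negative library below rests on few cells and in part on cells that go against the name.

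**Figure D1:**
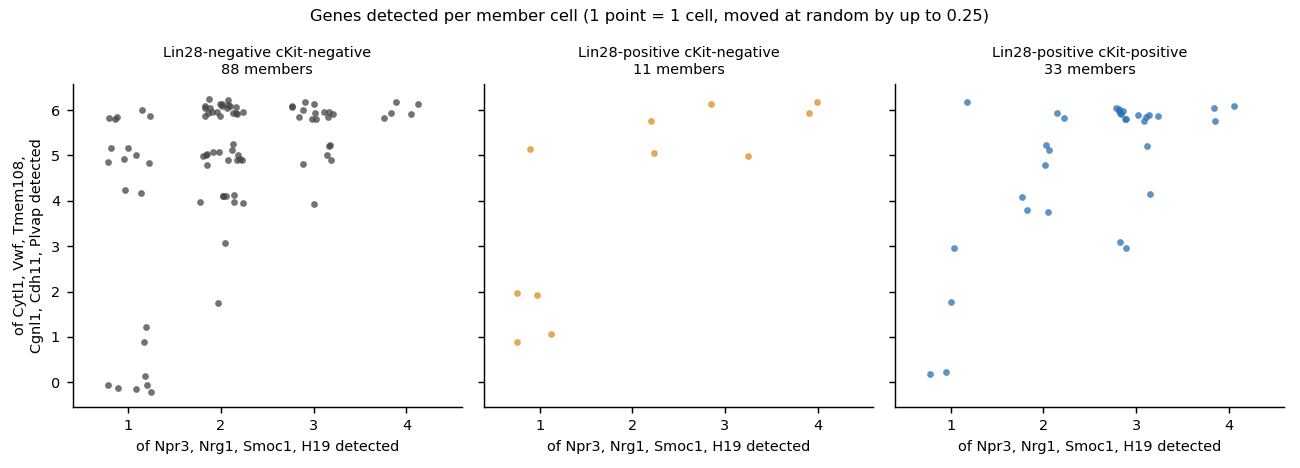
Number of the 4 rule genes (horizontal axis) and of the 6 further endocardial genes (vertical axis) detected in each of the 132 endocardial cells, 1 panel per library and 1 point per cell, moved at random by up to 0.25 so that points do not hide each other. In each library most points lie at 4 or more of the 6, and a smaller set at the lower left holds 1 of the 4 and few or none of the 6.

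Across all genes with at least 20 UMIs in a comparison, a gene was called higher or lower than in the other endothelial cells of the same library when it differed by at least 2-fold and its interval left out 1. Higher calls took 7.23%, 5.1% and 6.63% of the 9776, 8216 and 8845 genes measured, and lower calls 9.53%, 4.43% and 9.02%. In both larger groups of endocardial cells, the double-negative and the double-positive, 343 of 8741 genes were higher (3.92%) and 478 lower (5.47%). These are descriptions of cells chosen on their own transcripts, and they give the background for the counts that follow. For the medians of lists, UMIs under 3 were taken as 3, and over all measured genes the median log2 ratio was then -0.11, 0.30 and -0.05. Over measured genes with a UMI in both sets and no such floor it was -0.11, -0.07 and -0.14.

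Of a list of 20 genes known from the endocardium and its development, 13 of 19 measured were higher and 1 lower in the double-negative library, 11 of 15 higher and 2 lower in the Lin28-positive cKit-negative library, and 13 of 17 higher and 1 lower in the double-positive library. The median log2 ratios of the list were 2.74, 2.55 and 3.68. This list was chosen with earlier results of these data known, so its counts describe the cells and do not test the name. Cytl1, a small secreted cytokine-like protein, was 1948, 1847 and 1628 CPM in the endocardial cells and 64.7, 24.4 and 35.4 CPM in the others, 30.1-fold (26.2 to 34.7), 75.6-fold (55.4 to 105) and 45.9-fold (36.7 to 58.0) higher. In the Lin28-positive cKit-negative library 122 of its 201 UMIs came from 1 cell, and without that cell the level was 827 CPM and the ratio 33.9. Vwf, the von Willebrand factor that binds platelets to the vessel wall, was 1946, 1020 and 1105 CPM against 102, 118 and 38.8 CPM. Plvap, which forms the diaphragms of endothelial caveolae and fenestrae, was 777, 754 and 916 CPM against 24.8, 13.9 and 15.5 CPM. In each library these 3 genes lay far above the level of the other endothelial cells, by 8.66-fold (Vwf, Lin28-positive cKit-negative) or more.

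The junction and adhesion genes of the list were similar. Cgnl1 (paracingulin, a tight junction protein) was 998, 689 and 688 CPM and higher by 14.7-fold, 13.6-fold and 11.1-fold. Tmem108 was 532, 414 and 435 CPM against 9.98, 5.75 and 8.67 CPM. Cdh11, a cadherin better known from mesenchymal cells, was 410, 239 and 317 CPM and higher by 60.8-fold (40.3 to 95.8), 166-fold (51.0 to 859) and 38.2-fold (23.8 to 64.0).

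Transcription factors of the developing heart and valves were higher as well. Foxc1, a forkhead factor, was 276, 147 and 310 CPM against 25.6, 27.3 and 24.1 CPM, which is 10.8-fold, 5.39-fold and 12.8-fold. Hand2 was higher by 12.6-fold, 11.7-fold and 16.6-fold, Gata6 by 6.19-fold, 5.85-fold and 6.38-fold, and Meis2 by 23-fold, 8.86-fold and 17.1-fold. Gata4 was low throughout, at 41.5, 27.6 and 42.8 CPM, and was called higher in the double-negative (6.69-fold, 3.67 to 12.3) and the double-positive library (12.6-fold, 4.87 to 33.9), with too few UMIs in the third. Nfatc1, the calcium-dependent factor of endocardial cushions, did not follow: it was 54.3, 147 and 14.3 CPM against 38.8, 39.3 and 28.7 CPM, and was called higher only in the 11 cells of the Lin28-positive cKit-negative library (3.74-fold, 2.04 to 6.45). Sox17, an arterial and endocardial SOX factor, was lower in all 3 libraries, at 4.79, 0 and 53.4 CPM against 163, 134 and 167 CPM. Hapln1, a link protein of valve matrix, was found in 1 cell with 7 UMIs, and Lgr5 in none. Of 30 endothelial transcription factors (27 measured in the Lin28-positive cKit-negative library), 8, 6 and 9 were higher and 9, 5 and 10 lower.

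**Figure D2:**
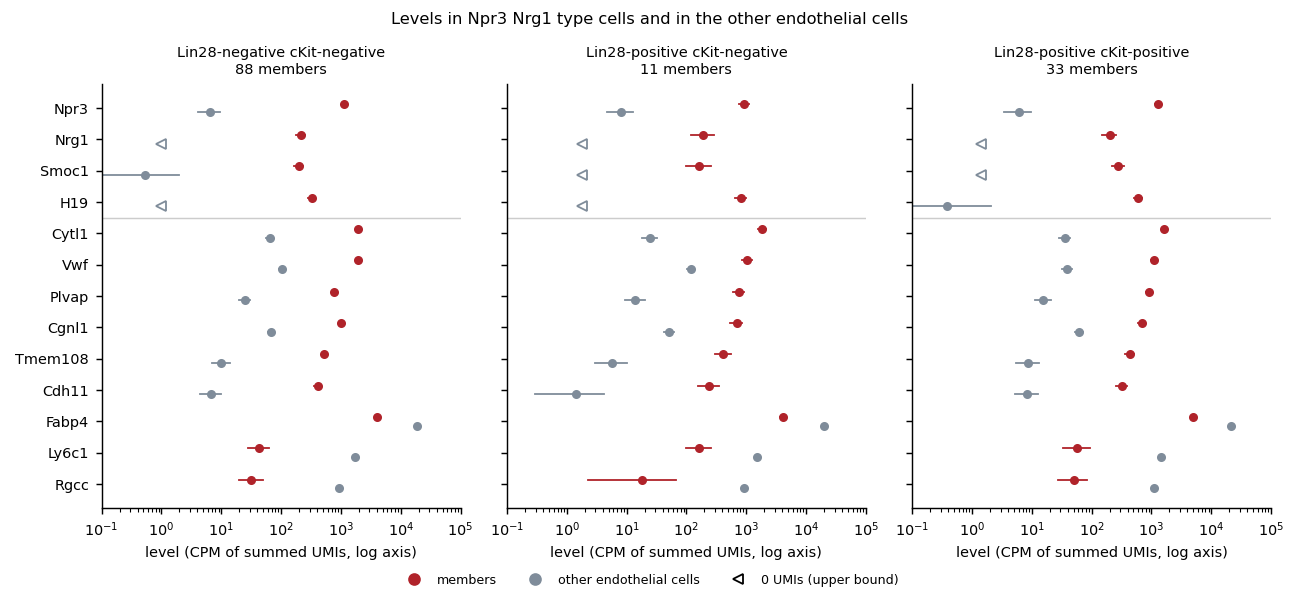
Levels in CPM, on a log axis, of 13 genes in the endocardial cells (members) and the other endothelial cells, 1 panel per library, with exact Poisson 95% intervals as lines and open triangles at the upper bound where a gene had 0 UMIs. The 4 genes above the grey line chose the cells. Cytl1, Vwf and Plvap lie above the other endothelial cells in each library, while Fabp4, Ly6c1 and Rgcc lie below them.

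Among the 20 genes that stood highest in both larger groups of endocardial cells, by the smaller of the 2 ratios, were Cyp1b1, Dpp4, Apoc1, Mpzl2, Comp, Bex4, Mal, Tmem108, Gsta4, Sall1, Prr15, Kcnt2, Gpm6a, Cdh11, Col4a4, Enpp6, Ctsh, Plvap and Smpd3. They were named because they were extreme. Cyp1b1, a cytochrome P450 enzyme, was 123, 175 and 217 CPM against 1.35, 0.479 and 0 CPM, which is at least 192-fold in the double-positive library when 3 UMIs are taken for the 0. Dpp4, a surface peptidase that cleaves incretins and chemokines, was 244, 129 and 178 CPM against 1.89, 1.44 and 2.64 CPM.

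Ctsh, the lysosomal protease cathepsin H, was 856, 165 and 745 CPM against 21.9, 14.4 and 23.8 CPM. Comp, cartilage oligomeric matrix protein, was 177, 193 and 274 CPM against 2.97, 0.479 and 1.89 CPM, and Gpm6a, a membrane glycoprotein, was 251, 450 and 360 CPM against 5.67, 16.3 and 8.30 CPM. Apoc1, an apolipoprotein, was uneven among the cells, with 54 UMIs in 10 of 88 cells, 0 UMIs in 11 cells and 21 UMIs in 4 of 33 cells.

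**Figure D3:**
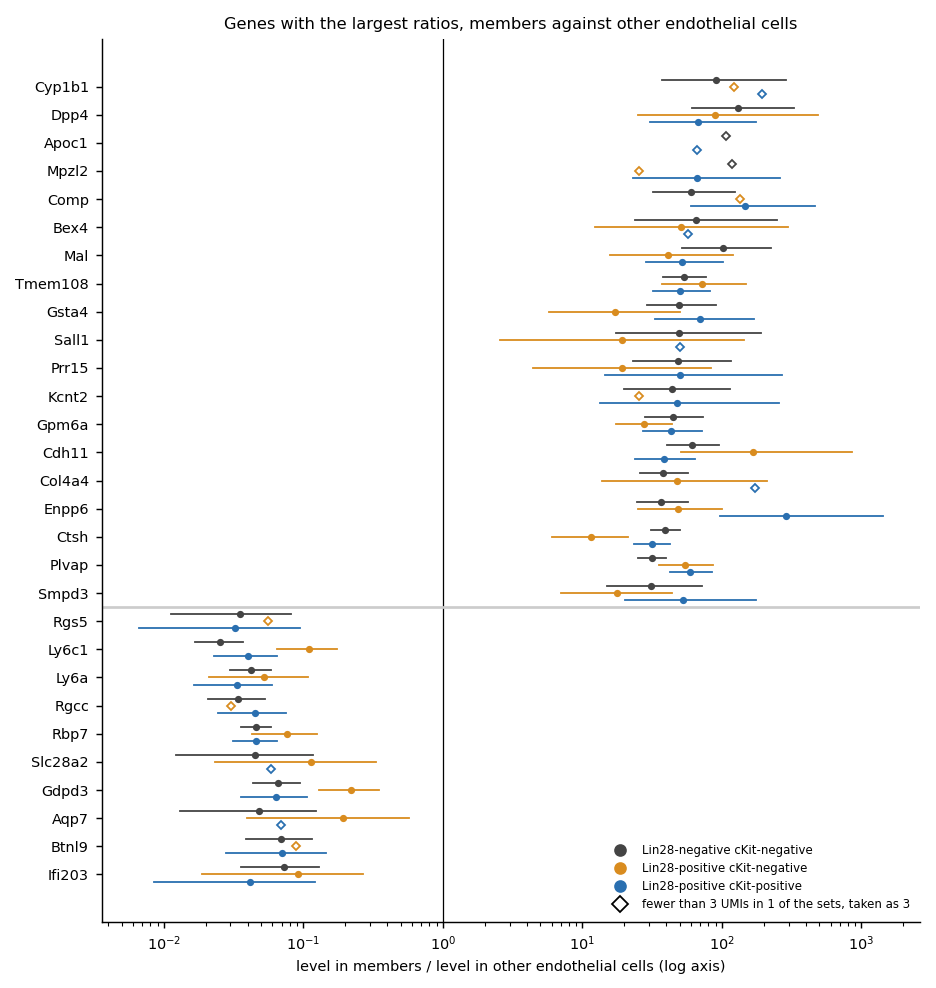
Ratio of endocardial to other endothelial cells, on a log axis, for the genes named among the 20 highest (top) and the 10 lowest genes, coloured by library, with exact 95% counting intervals as lines. Open diamonds mark genes with fewer than 3 UMIs in 1 of both sets, taken as 3. All points of the upper genes lie right of 1 and all points of the lower genes left of it, which the choice of the genes fixes for the 2 larger groups.

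Basement membrane genes split by chain. Col4a4 was 326, 91.9 and 196 CPM against 8.63, 1.92 and 0.377 CPM, and Col4a3 was 36.7, 9.19 and 32.1 CPM against 2.43, 0.958 and 3.02 CPM. Both are chains of the specialised type IV collagen network of the kidney and lung. Col4a1, a chain of the common network, was 206, 625 and 153 CPM against 1045, 1067 and 925 CPM, a call of lower in the double-negative (0.197, 0.164 to 0.235) and double-positive library (0.166, 0.120 to 0.224). Sparc, a collagen-binding matrix protein, was lower in all 3 libraries, at 409, 689 and 570 CPM against 1906, 1691 and 1994. Of the 38 matrix genes, 10 of 36 measured were higher and 9 lower in the double-negative library, 13 of 30 and 3 in the Lin28-positive cKit-negative, and 11 of 31 and 8 in the double-positive library. Bgn (biglycan, a small proteoglycan) was 832, 744 and 1105 CPM against 117, 48.8 and 12.1 CPM, and Spon1 (spondin, a matrix adhesion protein) was higher by 13.3-fold, 55.4-fold and 62.1-fold. Of 19 genes linked to endothelial-to-mesenchymal transition, 5 of 15, 4 of 10 and 4 of 12 measured were higher and 4, 0 and 3 lower, with the intermediate filament gene Vim at 3083, 3666 and 3200 CPM against 1322, 1026 and 1134 CPM.

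Genes for natriuretic peptide signalling differed from the receptor that the rule used. The guanylyl cyclase receptor Npr1, through which the peptides act, was 49.5, 91.9 and 42.8 CPM in the endocardial cells and 56.9, 68.0 and 46.0 CPM in the others, and its ratios of 0.869 (0.576 to 1.27), 1.35 (0.634 to 2.56) and 0.929 (0.467 to 1.68) were called neither way. The ligand genes Nppa, Nppb and Nppc together held at most 2 UMIs in the endocardial cells of any library. The soluble guanylyl cyclase, the nitric oxide receptor, stood higher: Gucy1a1 was 112, 36.8 and 103 CPM against 23.7, 19.2 and 13.2 CPM, and Gucy1b1 60.7, 64.3 and 92.6 CPM against 17.8, 23 and 13.2 CPM. Of the 14 genes of the list 10, 6 and 6 were measured, and 3, 1 and 2 were higher and none lower.

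On the neuregulin side the receptors on which Nrg1 acts were nearly absent from these cells. Erbb2 was 11.2, 36.8 and 7.13 CPM, from 7, 4 and 2 UMIs, and Erbb3 and Erbb4 had 0 UMIs in all endocardial and other endothelial cells. Bace2, an aspartic protease related to the neuregulin-cleaving Bace1, was 490, 211 and 371 CPM against 27.8, 31.6 and 20.4 CPM, 17.6-fold (14.1 to 22.3), 6.69-fold (3.97 to 10.9) and 18.2-fold (13 to 25.8) higher. Bace1 was 33.5, 18.4 and 24.9 CPM and was called neither way. Hbegf, another ligand of the family, was 115, 129 and 92.6 CPM against 60.7, 19.6 and 38.5 CPM. Of the 15 genes of the list 7, 6 and 6 were measured, and 2 were higher in each library and none lower.

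BMP and TGF-beta family genes moved in both directions. Of 28 genes, 8 of 18 measured were higher and 4 lower in the double-negative library, 4 of 15 and 3 in the Lin28-positive cKit-negative and 9 of 17 and 3 in the double-positive library. The ligand Bmp6 was 198, 377 and 410 CPM against 48.3, 70.9 and 50.5 CPM. Eng (endoglin), a co-receptor, was 1721, 1599 and 1525 CPM against 573, 564 and 487 CPM, a ratio of 3, 2.83 and 3.13. Its partner receptor Acvrl1 was lower, at 83.0, 73.5 and 85.5 CPM against 207, 148 and 181 CPM. The target genes parted: Id1 was lower in each library, 560, 579 and 524 CPM against 1762, 2186 and 2342 CPM, and Id2 was 586, 349 and 844 CPM against 139, 188 and 159 CPM, a call of higher in the double-negative and double-positive library.

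Of the Notch list 2 of 18, 0 of 13 and 0 of 15 measured genes were higher and 4, 4 and 5 lower. The ligand gene Dll4 was 9.58, 18.4 and 53.4 CPM against 112, 119 and 153 CPM, Jag2 4.79, 36.8 and 3.56 CPM against 99.3, 101 and 85.6 CPM, and the Notch target Nrarp 12.8, 9.19 and 10.7 CPM against 85.5, 82.4 and 117 CPM. The receptor Notch1 was 316, 312 and 346 CPM against 205, 194 and 201 CPM, under the 2-fold of a call in each library.

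Genes of fatty acid handling in heart capillaries, which take up fuel for the muscle, gave the most one-sided count. Of 20 genes 15 of 20 were lower and 1 higher in the double-negative library, 14 of 17 and 0 in the Lin28-positive cKit-negative, and 16 of 18 and 1 in the double-positive library, with median log2 ratios of -3.66, -2.30 and -3.30. Fabp4, a fatty acid carrier, was 4079, 4108 and 5010 CPM against 18742, 20178 and 21427 CPM. Cd36, the fatty acid translocase, was 469, 496 and 656 CPM against 2579, 3411 and 2638 CPM. Rbp7, a retinol carrier of capillaries, was 110, 138 and 114 CPM against 2393, 1816 and 2484 CPM, and Gpihbp1, which holds lipoprotein lipase on capillaries, was 102, 266 and 135 CPM against 1353, 1323 and 1584 CPM. The exception was Fabp5, a related carrier, at 4179, 1902 and 4625 CPM against 1338, 1329 and 1411 CPM, called higher in the double-negative (3.12-fold, 2.98 to 3.27) and double-positive library (3.28-fold, 3.07 to 3.49).

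The 10 lowest genes were Rgs5, Ly6c1, Ly6a, Rgcc, Rbp7, Slc28a2, Gdpd3, Aqp7, Btnl9 and Ifi203. Ly6c1 was 43.1, 165 and 57.0 CPM against 1700, 1512 and 1427 CPM, Rgcc 31.9, 18.4 and 49.9 CPM against 938, 916 and 1118 CPM, and Rgs5, best known from pericytes, 7.98, 0 and 10.7 CPM against 228, 496 and 333 CPM. The chemokine Cxcl12 was 104, 55.1 and 153 CPM against 2413, 1521 and 2004 CPM. Of 20 genes of VEGF and angiopoietin signalling, 3 of 19, 2 of 18 and 2 of 19 measured were higher and 8, 5 and 9 lower. The growth factor receptor Kdr was 216, 239 and 178 CPM against 982, 903 and 926 CPM, and Vegfc, the gene of a lymphatic growth factor, had 2, 0 and 2 UMIs.

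Venous markers, by contrast, were higher in 6 of 9, 6 of 8 and 7 of 9 measured genes, with 1 lower each. Nr2f2, the venous nuclear receptor COUP-TFII, was 198, 165 and 178 CPM against 56.9, 79.0 and 45.2 CPM. Vcam1, a leukocyte adhesion molecule, was 781, 1158 and 1514 CPM against 83.6, 92.4 and 50.9 CPM, and Selp (P-selectin) 78.2, 73.5 and 46.3 CPM against 12.9, 13.9 and 2.64 CPM. Vwf, Plvap and Bgn stand on this list and on others, so the counts are not separate. Genes of clotting and its control were higher in 7 of 15, 5 of 13 and 7 of 14 measured, with 0, 1 and 0 lower. Among them Procr, the protein C receptor, was 54.3, 175 and 103 CPM against 26.2, 15.3 and 19.6 CPM, and the prostacyclin synthase gene Ptgis 310, 129 and 235 CPM against 36.7, 2.39 and 13.6 CPM.

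Genes that respond to blood flow were split, 4, 3 and 3 of 20 higher and 6, 2 and 3 lower. Klf2, a factor induced by shear, was 1566, 1204 and 1001 CPM against 2330, 2445 and 2828 CPM, a call of lower in both Lin28-positive libraries. Ptgs1 (cyclooxygenase 1) was 453, 331 and 310 CPM against 54.2, 60.8 and 32.1 CPM, and Heg1, a receptor needed for heart and vessel integrity, was higher by 2.97-fold, 3.53-fold and 3.81-fold. Of 23 imprinted genes besides H19, 3 of 13, 1 of 10 and 7 of 12 measured were higher and 2, 2 and 1 lower. Plagl1, a zinc finger factor that regulates other imprinted genes, was higher by 29.9-fold (17.7 to 53.7), 32.0-fold (13.1 to 82.9) and 47.2-fold (20.7 to 126), whereas the growth inhibitor Cdkn1c was lower, at 211, 147 and 228 CPM against 524, 380 and 608 CPM.

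**Figure D4:**
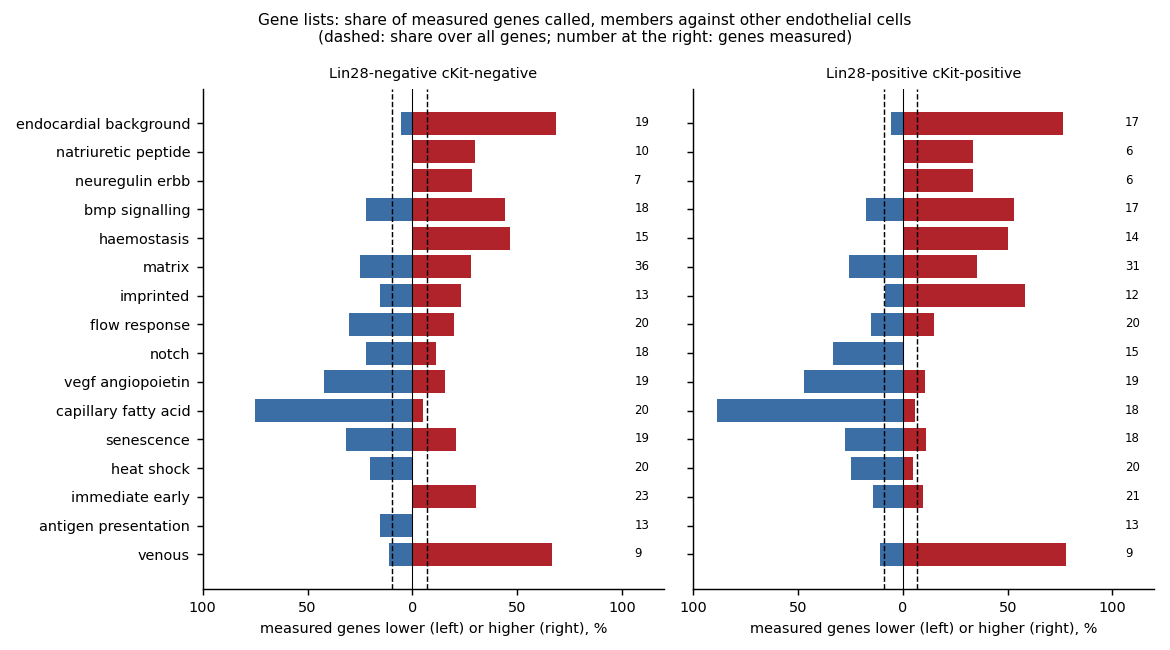
Share of the measured genes of 16 lists called higher (red, right) or lower (blue, left) in endocardial than in other endothelial cells of the double-negative and the double-positive library, in percent. Dashed lines give the shares over all measured genes and the number at the right the genes measured. The lists were chosen with earlier results of these data known. The longest red bars are those of the endocardial (13 of 19 and 13 of 17) and venous lists, and the longest blue bar that of the capillary fatty acid list (15 of 20 and 16 of 18).

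Of 20 heat shock genes 0, 2 and 1 were higher and 4, 9 and 5 lower, where over all genes lower calls also outnumbered higher ones in both larger groups. Hspa1a, the inducible heat shock protein, was 492, 276 and 349 CPM against 1882, 2300 and 2492 CPM. Of the senescence list, 4 of 19, 2 of 16 and 2 of 18 measured genes were higher and 6, 3 and 5 lower, so the list held calls in both directions. The cell cycle inhibitor Cdkn1a (p21) was 115, 55.1 and 17.8 CPM in the endocardial cells against 230, 296 and 264 CPM, lower in each library (0.499, 0.387 to 0.635; 0.186, 0.068 to 0.407; 0.0674, 0.0218 to 0.158). Cdkn2a (p16 and p19) was seen in 2 of the 132 cells, with 8 and 3 UMIs, and both are the lymphatic-gene cells of the Lin28-positive cKit-negative library. Immediate early genes were higher in 7 of 23, 4 of 21 and 2 of 21 measured and lower in 0, 1 and 3. Kit, the transcript of the receptor used in the sort, was 6.39, 18.4 and 10.7 CPM, from 4, 2 and 3 UMIs. In the other endothelial cells Kit was 19.4, 23.9 and 19.6 CPM. Its UMIs in the endocardial cells were too few for a call between libraries. Proliferation genes were called higher in 0 of 11, 0 of 13 and 0 of 10 measured.

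Several genes best known from fibroblasts stood higher in the endocardial than in the other endothelial cells. Mgp, an inhibitor of calcification, was 7548, 2371 and 9987 CPM in the endocardial cells against 1032, 199.7 and 176 CPM. Dcn (decorin, a collagen-binding proteoglycan) was 4492, 1728 and 3164 CPM against 912, 50.8 and 60.3 CPM, and Lum (lumican) 655, 285 and 456 CPM against 97.1, 3.83 and 17.3 CPM. These levels were 20.9%, 10.0% and 15.2% of the level in fibroblast-scoring cells of the same library for Dcn, 33.8%, 14.1% and 22.0% for Lum and 64.0%, 20% and 89.4% for Mgp. In the other endothelial cells Dcn stood at 4.25%, 0.295% and 0.290% of the fibroblast level.

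Other fibroblast genes were split. Col1a2, a chain of collagen I, was 86.2, 27.6 and 67.7 CPM against 38.0, 1.44 and 2.64 CPM and was called higher in the double-negative (2.27-fold) and the double-positive library (25.6-fold). Mfap5, a microfibril protein, was 176, 64.3 and 78.4 CPM against 52.3, 5.75 and 1.89 CPM, with the same calls. Col3a1 was 76.6, 9.19 and 42.8 CPM against 53.4, 4.79 and 7.16 CPM and was called higher in the double-positive library (5.97-fold). Pdgfra was at 7.98, 0 and 0 CPM and Dpt at 41.5, 0 and 0 CPM. Gsn (gelsolin) was 967, 9.19 and 24.9 CPM in the endocardial cells and 1371, 23.5 and 14.3 CPM in the others. That is 3.40%, 0.0354% and 0.0981% of the fibroblast level, called neither way in any library. Of the 15 fibroblast markers 14, 3 and 6 were measured, with 5, 2 and 5 higher. Their summed level was 6698, 2150 and 3884 CPM in the endocardial cells and 2780, 113 and 124 CPM in the others. It ranged over single endocardial cells from 1170 to 20154, from 0 to 6026 and from 0 to 8081. In the double-negative library only Lamc3 was at 0, and in the Lin28-positive libraries 7 and 5 of the 15 were at 0, Pdgfra, Dpt, Tcf21 and Fbln1 among them in both. In the 22 and 18 endocardial cells of the double-negative and double-positive library without a UMI of the 5 fibroblast genes of the rule, Dcn was 4.09-fold and 44.3-fold, Lum 5.08-fold and 27.2-fold and Mgp 7.08-fold and 36.9-fold above the others. In the double-negative library Dcn was seen in 53.1% of the other endothelial cells thinned to 1000 UMIs. The part of fibroblast RNA was not tested in any library.

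**Figure D5:**
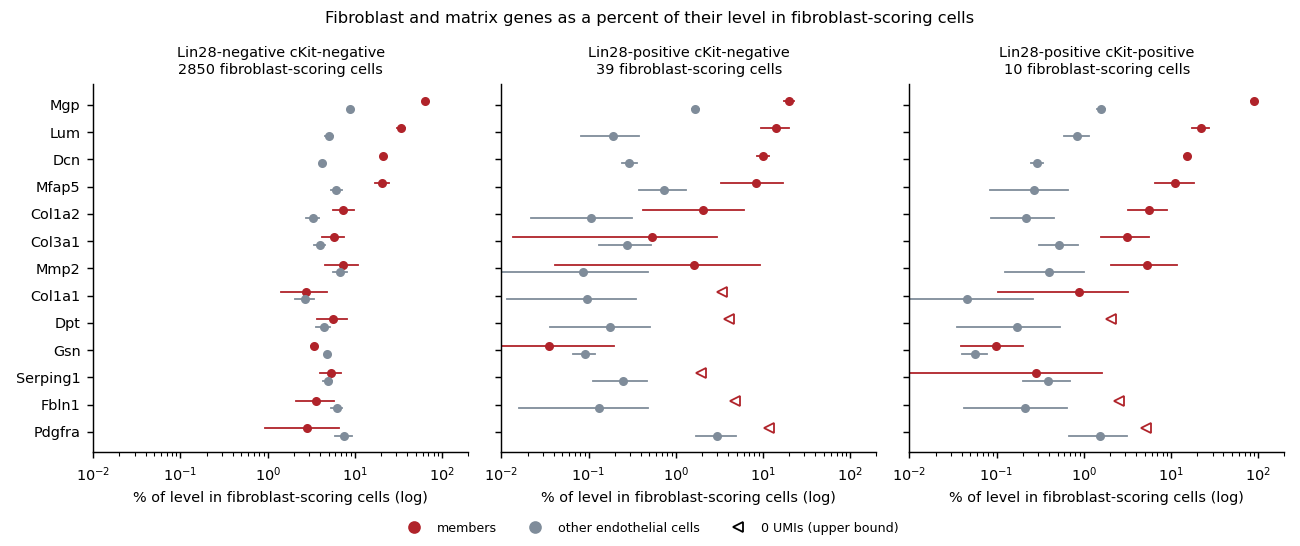
Level of fibroblast genes in the endocardial and the other endothelial cells, as a percent of the level in fibroblast-scoring cells of the same library on a log axis, 1 panel per library, with 95% counting intervals as lines and open triangles at the upper bound where a gene had 0 UMIs. Mgp, Lum and Dcn stand at 10.0% or more in the endocardial cells of each library, and Gsn between 0.0354% and 3.40%.

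Of the other marker lists, the valve interstitial genes summed to 2189, 2058 and 1967 CPM in the endocardial cells and 135, 59.4 and 66.7 CPM in the others, with 2 of 5, 2 of 3 and 3 of 4 measured genes higher. That list holds Cytl1 and Comp, described above, and 5, 9 and 8 of its 12 genes were at 0 in the endocardial cells, Chad, Wif1, Fmod and Acan in each library. Macrophage markers summed to 25.5, 414 and 816 CPM in the endocardial cells and to 75.8, 615 and 1061 CPM in the others, and none was higher. Of the cardiomyocyte markers 0 of 10, 0 of 9 and 0 of 10 were higher and 9, 3 and 8 lower, and of the pericyte markers 1 of 11, 0 of 6 and 1 of 11 were higher and 7, 1 and 4 lower. Lymphatic markers summed to 613, 8050 and 164 CPM in the endocardial cells against 593, 1166 and 1313 CPM, with 2 of 10, 9 of 11 and 0 of 11 higher and 2, 0 and 6 lower.

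Among the endocardial cells the seen and unseen state of Nrg1 went with a few other transcripts. In the double-negative library the 24 cells with Nrg1 had a median of 8059 UMIs and the 64 without it 6781, and in the double-positive library 17 and 16 cells had 9105 and 8405.5, so depth favoured the first group in both. No cell held Nrg1 alone of the rule, so the 21 and 5 cells with a single rule gene all fell in the set without Nrg1. Of these, 6 and 2 held none of the 6 further endocardial genes, so the split also follows how well the name holds. Edn1, the vasoconstrictor endothelin, was 237 CPM with Nrg1 and 31.8 CPM without it in the double-negative library, from 44 and 14 UMIs, of which 28 and 9 came from 1 cell each. It was 543 and 33.7 CPM in the double-positive library, where 72 of the 88 UMIs came from 1 cell. Without the top cell of each set the levels were 90.6 and 11.4 CPM in the first and 106 and 18.2 CPM in the second. Yet 2 cells with Nrg1 held 38 of the 44 Edn1 UMIs in the first library and 87 of the 88 in the second. The Nrg1 cells also held 49 of the 54 Apoc1 UMIs in the double-negative library and all 21 in the double-positive library, with 41 and 19 of them in 2 cells. Ahsg (fetuin, a secreted inhibitor of calcification) was 253 against 107 CPM and 525 against 219 CPM. Comp was 410 against 79.4 CPM and 315 against 219 CPM, where 16 of the 26 UMIs without Nrg1 came from 1 cell. Inhba, an activin subunit, was lower with Nrg1 in the double-negative library, 43.1 against 399 CPM, and had 2 and 2 UMIs in the double-positive library. In the double-negative library 118 of the 176 Inhba UMIs without Nrg1 came from 2 cells. Without the top cell of each set its levels there were 28.1 and 261 CPM. Mgp was 4722 against 8737 CPM and 8825 against 11574 CPM. Over the 88 endocardial cells of the double-negative library, Cytl1 varied with Mgp (r = 0.70) and with Cgnl1 (r = 0.57). They were the largest values among the gene pairs compared. These correlations describe cells of 1 library with unequal depth, the cells with none of the 6 further genes among them.

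Between libraries the endocardial cells were compared as sums, with groups and libraries coinciding, so the sort and the library cannot be told apart. Against the double-negative library, 222 of 4868 measured genes (4.56%) were higher and 159 (3.27%) lower in the Lin28-positive cKit-negative library. In the double-positive library 110 of 5492 (2%) were higher and 174 (3.17%) lower. Of 2875 genes measured between both Lin28-positive libraries, 102 (3.55%) were higher and 155 (5.39%) lower in the double-positive one. Of the endocardial list, 1 of 17 measured genes was higher and 2 lower in the Lin28-positive cKit-negative than in the double-negative library. In the double-positive library 2 of 17 were higher and 2 lower than in the double-negative library, and 4 of 14 were higher and 1 lower than in the Lin28-positive cKit-negative library. Nfatc1 was called in each comparison, at 54.3, 147 and 14.3 CPM from 34, 16 and 4 UMIs. Fgfr3, a fibroblast growth factor receptor, was lower in both Lin28-positive libraries, at 18.4 and 21.4 CPM against 81.4 CPM. Vwf, at 1946, 1020 and 1105 CPM, stayed under the 2-fold of a call, and so did Plvap and Cytl1. Over the settings tried, the Vwf ratio of the double-positive to the double-negative library ran from 0.465 to 0.595, with the lower end past 2-fold.

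The 2 highest ratios of the Lin28-positive cKit-negative library came from its lymphatic-gene cells. Ccl21a, the chemokine of lymphatic vessels, had 590 UMIs there and 196 in the double-negative library, 5422 against 313 CPM (17.3-fold, 14.7 to 20.5). All 590 came from 2 cells, with 267 and 323, and 193 of the 196 from 1 cell. The same 2 cells held all 52 Mmrn1 UMIs, 17 and 35, and had no Npr3, Nrg1 or Smoc1. Of the lymphatic markers 9 of 9 measured were higher than in the double-negative library, with a median log2 ratio of 3.62. Sgk1, a kinase induced by serum and glucocorticoids, and the Notch target Hes1 were 5.13-fold and 4.38-fold higher, with 64 of 90 and 62 of 86 UMIs in 1 cell, the lymphatic-gene cell with 267 Ccl21a UMIs. Without the top cell of each library their ratios were 2.08 and 1.63. Lyve1 was 6.69-fold higher, with 77 of 93 UMIs in that same cell, and 1.74-fold without the top cells. Among the lower genes Gsn had 1 UMI against 606, Ednrb, an endothelin receptor, 1 against 84 and Ptn, pleiotrophin, 4 against 103. Inhba had 1 UMI against 184, and 118 of the 184 came from 2 cells. Ctsh was 165 against 856 CPM (0.193, 0.114 to 0.308), with no cell holding more than 4 of its 18 UMIs. In the other endothelial cells the same library ratios were 0.0171 for Gsn, 0.152 for Ptn, 0.657 for Ctsh and 0.984 for Ednrb. Inhba was 0 against 12.4 CPM there. Of the fibroblast markers 8 of 9 measured were lower, with a median log2 ratio of -1.45, beside 39 fibroblast-scoring cells against 2850, and their part in the lower genes was not tested.

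In the double-positive library the highest ratios to the double-negative library were those of 3 genes abundant in myeloid cells, Lyz2 (63 against 1 UMI), Cxcl2 (80 against 6) and Cd74 (64 against 11). All 3 macrophage markers measured were called higher in that comparison, beside 670 macrophage-scoring cells against 22. The macrophage list summed to 816 CPM in these endocardial cells and to 1061 CPM in the other endothelial cells of the library, and the part of macrophage RNA was not tested. Edn1 was 328 against 92.6 CPM (3.54-fold, 2.52 to 5.01), but 72 of its 92 UMIs came from 1 of 6 cells and the ratio without the top cells was 1.53. Rnd1, a small GTPase, was 199.5 against 59.1 CPM (3.38-fold, 2.19 to 5.26), and 3.30-fold without the top cells. In the other endothelial cells the same library ratios were 16.5 for Lyz2, 38.6 for Cxcl2 and 7.08 for Cd74. There Edn1 stood at 0.439 and Rnd1 at 1.43.

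Lower in the double-positive library were Gsn (7 against 606 UMIs) and Serping1 (1 against 55), both abundant in fibroblasts, beside 10 fibroblast-scoring cells against 2850. Inhba was 14.3 against 294 CPM (0.0485, 0.0131 to 0.126), from 4 UMIs against 184 in 21 cells, and 0.0566 without the top cells. Of the 184 Inhba UMIs, 118 came from 2 cells, and only 1 of these is left out in the last ratio. Of the 72 Cdkn1a UMIs of the double-negative library, 37 and 19 came from 2 of 11 cells. The Cdkn1a level was 17.8 against 115 CPM (0.155, 0.0489 to 0.379), and the ratio was 0.190 without the top cells. Without H19 in the rule it was 0.651, no longer a call. In the other endothelial cells the same library ratios were 0.0105 for Gsn, 0.061 for Serping1 and 1.15 for Cdkn1a. Inhba was 0 against 12.4 CPM there. Of the senescence list 2 of 12 measured genes were higher and 1 lower in the Lin28-positive cKit-negative and 0 of 13 and 3 in the double-positive library than in the double-negative library.

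Between both Lin28-positive libraries, Selenbp1, a selenium-binding protein, had 64 against 3 UMIs and Pla2g7, a lipase that inactivates platelet-activating factor, 60 against 4. Ctsh was 745 against 165 CPM (4.5-fold, 2.78 to 7.75) and Ahsg 395 against 91.9 CPM (4.30-fold, 2.25 to 9.22). Edn1 was 328 against 36.8 CPM (8.92-fold, 3.37 to 33.4), and 7-fold without the top cells, from 20 UMIs against 1. Of these 20 UMIs 15 came from 1 cell. The genes lower in the double-positive library included those of the lymphatic-gene cells, with Ccl21a at 1 against 590 UMIs, Mmrn1 at 0 against 52 and Lyve1 at 26 against 93, and all 5 lymphatic markers measured were lower. Sgk1 was 199.5 against 827 CPM, and Col4a1 was 153 against 625 CPM (0.245, 0.163 to 0.364), where 39 of 68 UMIs came from 1 of 7 cells.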

How the data were processed

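The members and the gene lists were chosen with earlier results of these data known. Per the submitters' processing notes, the authors used Seurat 4.0.2 and Cell Ranger (version not given in the sources used here) with the build mm10. The deposited tables hold natural log values, ln(1 + 10000 x UMIs of a gene / UMIs of the cell), which was checked on the values. Division by the value of 1 UMI gave whole numbers within 0.01 for 100% of them, so UMI counts were recovered and summed over cells. The design had assumed deposited counts; the recovered ones were analysed as it set out. No cell was removed; the lowest cells held 500, 502 and 501 UMIs. No doublet was removed. Transcripts of Lin28a and Lin28b were left out.

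Levels are CPM with exact Poisson intervals, ratios have exact conditional binomial intervals and shares Clopper-Pearson intervals (95%, scipy 1.17.1, Python 3.11.15). A call needed 2-fold, an interval without 1 and 20 UMIs in the pair. Against 0, a ratio was taken with 3 UMIs. The ratio calls were tried on simulated Poisson counts without spread between cells, and the rule that chose the cells was not tried. Named were the rule genes, Cdkn1a, Cdkn2a and Kit, the 20 highest and 10 lowest genes (ranked by the ratio nearest to 1 over the 2 libraries with at least 20 of the cells, with 50 UMIs), 2 to 4 genes of each list, the endocardial, natriuretic, neuregulin and BMP lists at will, and 5 genes per direction between libraries. Mitochondrial, ribosomal, haemoglobin, Gm and Rik genes were passed over. Genes named for their spread over cells (Apoc1, Ahsg, Edn1, Inhba, Comp) in the comparison by Nrg1 were chosen after their values were seen. A gene among the 20 highest is not reported here. Gene positions are those of GENCODE vM21. Alternatives changed the rule, the filter, the fold, the scaling and the members; leaving out the cell with most UMIs of a gene was added after seeing the data.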

Additional observations from a re-analysis of the deposited data

Results flagged for a closer look

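In 26 genes, with 33 pairs of values, endocardial and other endothelial cells, or 2 libraries, were called in opposite directions, and 6 of these genes are named here. The difference itself was not tested in any of them, since each group is 1 library. From the double-negative to the double-positive library, Ahsg was 2.64-fold in the endocardial cells and 0 in the other endothelial cells, where it had 0 UMIs against 45. Bmp4, a BMP ligand, was 3.11-fold in the endocardial cells against 0.499 in the others, and 24 of its 46 UMIs came from 1 cell. Without the top cells its ratio was 1.74, under the 2-fold of a call. Between both Lin28-positive libraries Bmp4 was 5.95-fold against 0.426. The BMP receptor gene Bmpr1a was 2.16-fold against 0.386 between the double-positive and the double-negative library. Edn1 was 3.54-fold against 0.439 in that comparison and 8.92-fold against 0.472 between both Lin28-positive libraries, with 72 of 92 UMIs in the same cell.

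Lymphatic genes rested on single cells. Ccl21a was 10.5-fold higher in the endocardial than in the other endothelial cells of the Lin28-positive cKit-negative library. In the double-positive library its ratio was 0.00413, and the ratios of Mmrn1 were 3.63 and 0. From the double-negative to the double-positive library Ccl21a was 0.0114 in the endocardial cells and 2.78-fold in the others. All UMIs of both genes in the Lin28-positive cKit-negative library came from 2 of 11 cells.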

How the results depend on the processing

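No paired analysis was possible because each group is 1 library. Every value rests on 1 library per group, 11 cells in the smallest group, and genes under 20 UMIs were not called. Over 37 values that compared endocardial with other endothelial cells and 16 settings, 465 of 590 stayed within their counting interval, 125 moved and 0 reversed. Of 240 values between libraries 210 stayed, 27 moved and 3 reversed. The minimum of 1 UMI, the minimum of 100 UMIs and the call at 1.5-fold change calls and not ratios, so their values stayed by construction. An endothelial minimum of 0.25 and leaving out the 5% of cells with the most UMIs kept the same 88, 11 and 33 endocardial cells. Under these 2 settings the values between libraries could not move either. A reversal is a called ratio that crossed 1. The reversals were Edn1 between the double-positive and the double-negative library, 0.717 when cells were thinned for the rule, and H19 between the Lin28-positive cKit-negative and the double-negative library, 0.544 without H19 in the rule and 0.591 with at least 2 of the 4 genes required. The cause was not tested. Ratios that were not called also crossed 1. Edn1 between the Lin28-positive cKit-negative and the double-negative library went from 0.397 to 2.92, a call, with Leiden clusters and 1.49 with means over cells, and Mgp between the double-positive and the double-negative library from 1.32 to 0.995 with thinned cells and 0.888 without members holding fibroblast genes. The share of endocardial cells in the double-negative library was 6.80% with at least 2 of the 4 genes and 6.89% with thinned cells. Leiden clustering of the endothelial cells gave 142 cells, 117 of them among the 132.

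Counts of called genes depended more on the settings. Genes higher in both larger groups numbered 208 among members without a UMI of the 5 fibroblast genes and 136 with a minimum of 100 UMIs, and lower genes 256 among those members. Between the Lin28-positive cKit-negative and the double-negative library, 381 calls became 219 with a lead of 0.5 over the other sets, 194 with at least 2 of the 4 genes, 225 with thinned cells, 249 with Leiden clusters, 221 without members holding fibroblast genes, 586 with a minimum of 1 UMI and 95 with 100. Without the members with lymphatic genes, an alternative added after seeing the data, they were 269. Between the double-positive and the double-negative library 284 became 105 without fibroblast-gene members, 439 with a minimum of 1 and 19 with 100 UMIs, and 445 with a 1.5-fold call. Between both Lin28-positive libraries 257 became 154 with the lead of 0.5, 166 with at least 2 genes, 161 with thinned cells, 161 with Leiden clusters, 508 with a minimum of 1, 37 with 100 UMIs and 157 without the members with lymphatic genes. Scaling without mitochondrial, ribosomal and haemoglobin genes moved the median log2 ratio of measured genes with a UMI in both sets from -0.11, -0.07 and -0.14 to -0.07, -0.06 and -0.09, and means over cells to -0.13, -0.15 and -0.17.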
